A study of Arabidopsis thaliana with 4 samples.

Results

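The LCR genes of Arabidopsis thaliana encode low-molecular-weight cysteine-rich proteins. They were taken as the protein-coding genes whose symbol in a RefSeq gene table is LCR followed by a number, and 80 of the 27432 protein-coding genes on chromosomes 1 to 5 met this rule. The gene AT1G27340, an F-box gene with the symbol LCR and no number, was left out, and so was LCR71, which the table lists as a pseudogene. A gene counted as having a peak if a peak touched the window that reaches 500 bp to each side of either gene end. The members themselves were chosen by symbol, but the family was selected on its peak calls in these lists, so its shares of genes with a peak are descriptions and were not tested.

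LCR proteins are small, are made with a signal for secretion and carry cysteines that form disulfide bridges. They belong to the wider group of defensin-like proteins, which includes the plant defensins that act against fungi, and many genes of that group are known for expression in reproductive tissues. TRB1 is a DNA-binding protein with a Myb-type domain and a histone-like domain, known for its binding to the telomeric repeat. The 80 members include 5 that are also named as plant defensins: LCR66, LCR67, LCR68, LCR69 and LCR72.

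Immunoprecipitated chromatin of seedlings aged 14 days was sequenced in 4 libraries, 1 in each of 4 groups, and the groups were 2 with TRB1 captured and 2 controls. In the first approach, seedlings homozygous for TRB1pro:TRB1-GFP, in which the TRB1 promoter drives TRB1 joined to green fluorescent protein, were compared with Wt/Wt seedlings, both on the GFP-Trap A matrix. In the second approach, chromatin of Wt/Wt seedlings with the antibody anti-TRB1 (5.2) was compared with Wt/Wt chromatin without antibody. The labels do not say whether the TRB1-GFP seedlings kept their own TRB1, nor which approach stands behind which replicate list. The data were 4 peak lists: 3975 peaks in replicate 1, 7480 in replicate 2, 24219 in a list named for the caller PePr and 4995 in a genomic list. All 4995 genomic intervals were identical to stretches common to the replicate 1, replicate 2 and PePr lists, so the genomic list is not independent of them. With peak lists in place of reads, the depth of each library and the signal of the controls at these genes are unknown, and with 1 library a group there is no replicate error to set beside a share.

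No LCR gene had a peak of the genomic list. The count was 0 of 80 LCR genes (0%, exact 95% interval 0 to 4.51), against 19.7% of all other protein-coding genes. In the replicate 1 list 6 of 80 LCR genes had a peak (7.5%, exact 95% interval 2.80 to 15.6), against 24.6% of other genes. In the replicate 2 list 6 of 80 LCR genes also had one (7.5%), against 41.5% of other genes. In the PePr list 26 of 80 LCR genes had one (32.5%, exact 95% interval 22.4 to 43.9), against 68.8% of other genes. Relative to other genes, the LCR share was 0.304-fold in replicate 1, 0.181-fold in replicate 2 and 0.473-fold in PePr. These intervals cover counting error over genes only. They take the genes as independent, although genes of a run can share a peak. They make no allowance for the choice of the family on its peak calls.

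**Figure D1:**
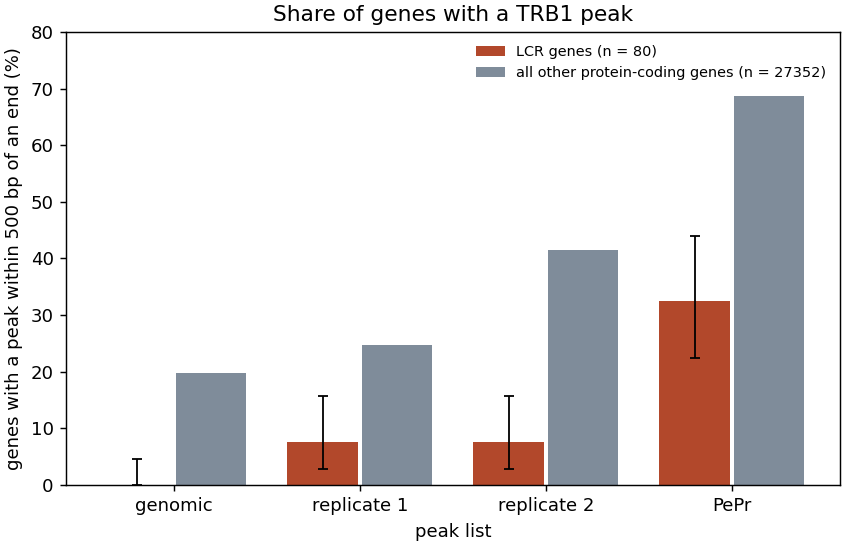
Percent of genes with a peak within 500 bp of an end in each of the 4 peak lists, for the 80 LCR genes (left bar of each pair, with exact 95% intervals) and all 27352 other protein-coding genes (right bar). The LCR share is 0% in the genomic list, 7.5% in both replicate lists and 32.5% in the PePr list, below the share of other genes each time.

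Few LCR genes had a peak in more than 1 list. The shares below are over all genes and depend on the share in each list, so they do not measure how far the lists agree. Of the 80 members, 49 (61.3%) had a peak in no list, against 26.8% of other genes. A peak in at least 1 replicate list was found at 11 members (13.8%), against 43.8% of other genes. LCR49 alone had a peak in both replicate lists, which is 1.25% of LCR genes against 22.3% of other genes. Both replicate 1 and PePr had a peak at 3 members (3.75%), LCR31, LCR76 and LCR27, against 22.9% of other genes. Both replicate 2 and PePr had a peak at 3 other members, LCR17, LCR23 and LCR45, against 37.6% of other genes. For 20 members (25%) the PePr list was the sole source of a peak, and the matching share of other genes was 29.4%.

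**Figure D2:**
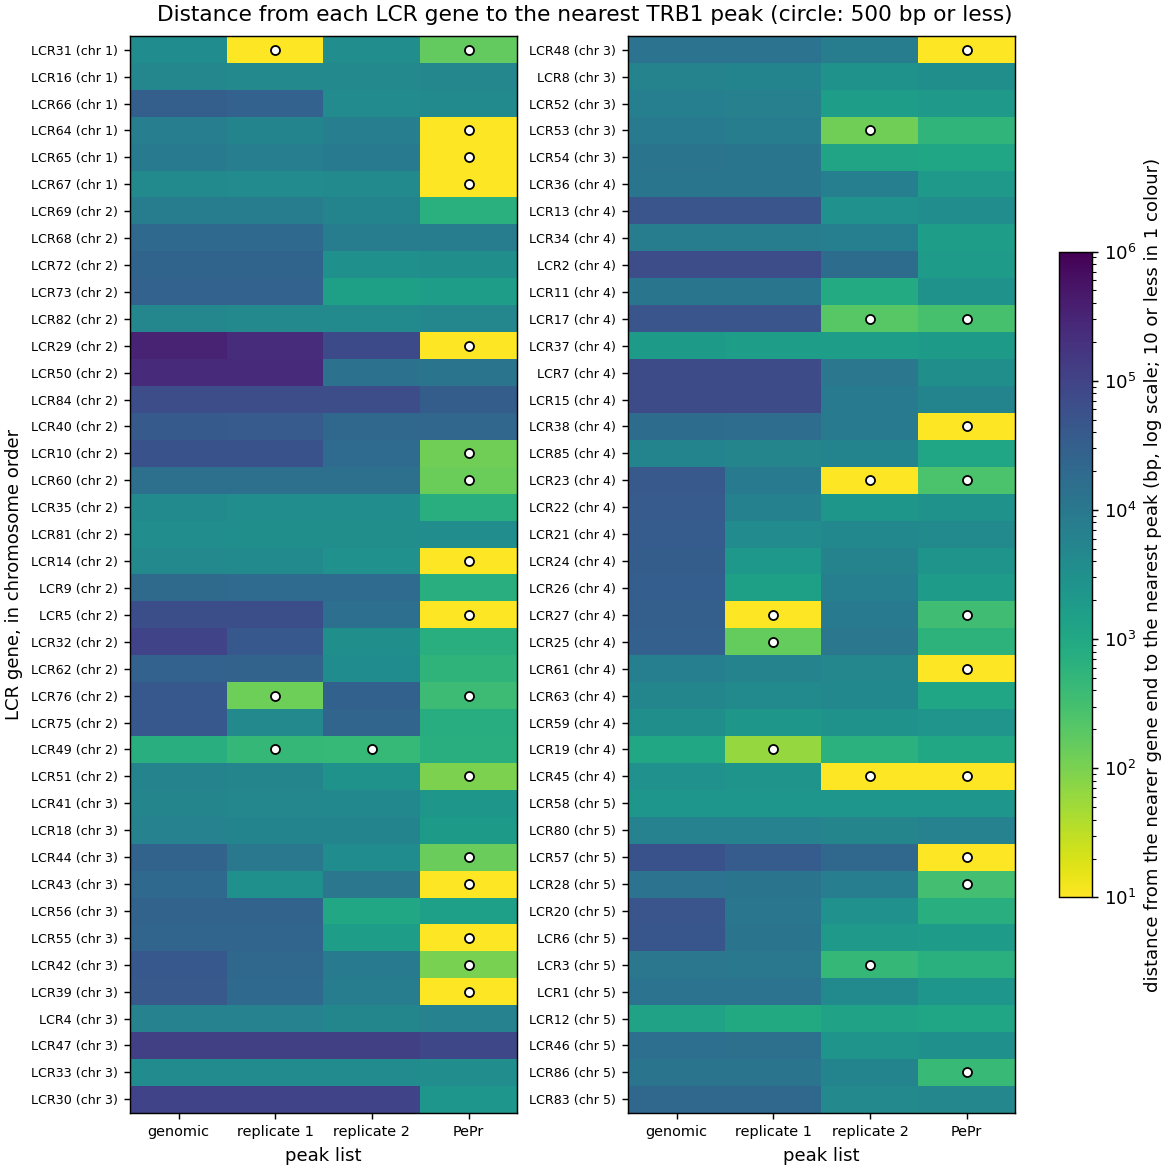
Distance in bp (colour, log scale) from the nearer end of each of the 80 LCR genes to the nearest peak of each list, with genes in chromosome order down both panels; a circle marks a distance of 500 bp or less. The genomic column has no circle, the replicate columns have 6 each, and LCR49 is the single row with a circle in both.

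At LCR49 the peaks of both replicate lists reached the edge of the window. The replicate 1 peak (chromosome 2, 14080636 to 14082553) ended 477 bp from the gene, and the replicate 2 peak (chromosome 2, 14080891 to 14082574) ended 456 bp from it. The middles of these peaks lay 1436 and 1298 bp from LCR49 and within YUC7, which encodes a flavin monooxygenase of auxin synthesis. The nearest genomic list peak lay 740 bp from LCR49, the shortest such distance of any member. In the authors' deposited lists the peak scored 678.99 in replicate 1, where 1.46% of peaks scored lower, and 736.16 in replicate 2, where 56.7% scored lower.

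The replicate 1 peaks at the other 5 members also lay mainly beside them. At LCR31 the peak (chromosome 1, 9933874 to 9937337) overlapped the gene end, but its middle lay 166 bp from an end of DYL1, a dormancy-associated gene, and 1396 bp from LCR31. At LCR76 the peak (chromosome 2, 13580813 to 13583248) stopped 128 bp short of the gene, and its middle was inside AT2G31945. LCR27 and LCR25, neighbours on chromosome 4, shared a peak (14434495 to 14435996) that lay between them, 0 bp from an end of LCR27 and 151 bp from LCR25. That peak was the single one of both replicate lists whose middle was nearer to an LCR gene than to any other protein-coding gene, at 722 bp from LCR27. At LCR19 the peak (chromosome 4, 14700661 to 14703501) stopped 62 bp from the gene, and its middle was 984 bp from an end of ARF16, an auxin response factor. Counting both LCR27 and LCR25, the replicate 1 list thus held 5 separate peaks for 6 members.

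The 6 replicate 2 peaks had their middles outside LCR genes too. At LCR45 the peak (chromosome 4, 18515193 to 18516571) covered the whole gene and had its middle inside POR, which encodes a tubulin-folding cofactor. At LCR23 it (chromosome 4, 14424249 to 14425648) overlapped the gene end, and its middle was 50 bp from an end of AT4G29270. At LCR53 (chromosome 3, 22644939 to 22646543) and LCR17 (chromosome 4, 7077485 to 7078983) the peaks stopped 120 and 200 bp away. Their middles lay inside AT3G61180 and AT4G11750. At LCR3 the peak (chromosome 5, 19158132 to 19159549) stopped 464 bp away and had its middle in AT5G47170.

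Measured by peak middles, the members of the replicate lists thinned further. The middle of a replicate 1 peak lay within 500 bp of an end of 0 LCR genes, against 13.1% of other genes, and that of a replicate 2 peak within 500 bp of 2 LCR genes, LCR23 and LCR45, against 25.3% of other genes. All 12 pairs of a replicate list peak and an LCR gene also had the end of another protein-coding gene within 500 bp of the peak. For LCR27 and LCR25 it was the end of the other. No replicate list peak had its middle inside an LCR gene. Peaks of these lists are wide, with a median of 2081 bp in replicate 1 and 1728 bp in replicate 2. The matching shares over all their peaks were not worked out, so neither statement sets LCR genes apart from other genes.

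The replicate list peaks at LCR genes had low scores for their lists. In the authors' deposited replicate 1 list the 5 peaks scored 678.99 to 1146.38 with a median of 846, and the median of the whole list was 1772. In the replicate 2 list the 6 peaks scored 113.38 to 736.16 with a median of 254, against a list median of 571. The scale of these scores is not given, and they were compared only within a list. They were 1502 to 3464 bp wide in replicate 1 and 1379 to 1684 bp wide in replicate 2.

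The PePr list, which has narrower peaks, had some of them on LCR genes, at a lower share than on other genes. A PePr peak overlapped the gene itself at 15 of 80 LCR genes (18.8%), against 61.1% of other genes. Its 27 peaks at 26 members included 14 (51.9%) of 340 bp, the smallest width in that list, against 31.1% of all its peaks. With each peak given to the gene end nearest to its middle, 18 of 80 LCR genes (22.5%) kept one, against 53.9% of other genes. For 9 members the middle lay inside the LCR gene. No other protein-coding gene end lay within 500 bp of the peak in 16 of the 27 cases. The matching shares for other genes and for all PePr peaks were not worked out, so these counts cannot be read as high or low. The median p-value in the authors' deposited list was 1.75e-07 for the 27 peaks and 5.53e-09 for all peaks, and 8 of the 27 had a p-value below that list median.

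Among members with a peak in the PePr list alone, the smallest p-values in the authors' deposited list were at LCR14, LCR10, LCR5, LCR42 and LCR29. The peak at LCR14 (chromosome 2, 10795681 to 10796700) was 1020 bp wide, had its middle 40 bp beyond the gene end and a p-value of 4.25e-25. The nearest replicate 2 peak to LCR14 was 2932 bp away and the nearest replicate 1 peak 4210 bp away. At LCR10 the peak (chromosome 2, 6776881 to 6778070) had a p-value of 2.79e-20, and its middle lay within MBR1, a RING-type ubiquitin ligase gene, 716 bp from LCR10. LCR5 had a peak (chromosome 2, 12120491 to 12121340) with a p-value of 1.12e-12 and LCR42 one (chromosome 3, 8263871 to 8264550) with a p-value of 1.95e-10. LCR29 had a peak of 340 bp (chromosome 2, 4082721 to 4083060) with its middle inside the gene and a p-value of 3.57e-10, although no genomic list peak lay within 332753 bp of it.

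Distance, which sets no limit of 500 bp, gave a graded picture of the same peaks. The median distance from an LCR gene to the nearest genomic list peak was 15887.5 bp (exact 95% interval of the median 10275 to 26345), against 7121.5 bp for other genes. To the nearest replicate 1 peak it was 9288.5 bp for LCR genes and 5637 bp for other genes. To the nearest replicate 2 peak it was 4592.5 bp for LCR genes and 1466 bp for other genes, and to the nearest PePr peak 1124.5 bp for LCR genes and 0 bp for other genes. A genomic list peak lay within 1 kb of 1 LCR gene (1.25%), against 22.8% of other genes, and within 10 kb of 30 LCR genes (37.5%), against 58.6%. The values on either side of 500 bp were 477 bp at LCR49 and 933 bp at LCR12 in replicate 1, 464 bp at LCR3 and 651 bp at LCR19 in replicate 2, and 407 bp at LCR86 and 542 bp at LCR53 in the PePr list.

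The members farthest from a genomic list peak were LCR29 (332753 bp), LCR50 (247815 bp) and LCR47 (113860 bp), followed by LCR30 (99232 bp) and LCR32 (96568 bp). LCR29, LCR50, LCR47 and LCR30 lay in gene-poor stretches, with 7, 6, 0 and 11 other protein-coding genes within 50 kb of them. LCR32 had 20 such genes, and its nearest replicate 2 peak was 3218 bp away.

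Peak coverage was low in the first kb beside LCR genes and higher farther out. In the first 1 kb outward from the gene ends, 0.163% of bases were in genomic list peaks beside LCR genes and 6.76% beside other genes. Between 5 and 10 kb out the values were 3.86% beside LCR genes and 4.64% beside other genes. In the replicate 2 list 3.26% of bases were in peaks within 1 kb of LCR genes, against 20.7% for other genes. At 5 to 10 kb in that list the values were 16.3% for LCR genes and 15.1% for other genes. Coverage in the PePr list was 8.98% within 1 kb of LCR genes and 15.3% at 5 to 10 kb, against 22.3% and 15.9% for other genes. Inside the genes, the mean percent of a gene that lay in replicate 1 peaks was 0.628% for LCR genes and 11.1% for other genes. The same mean for replicate 2 peaks was 1.87% for LCR genes and 18.6% for other genes, and for PePr peaks it was 7.0% for LCR genes and 17.5% for other genes.

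**Figure D3:**
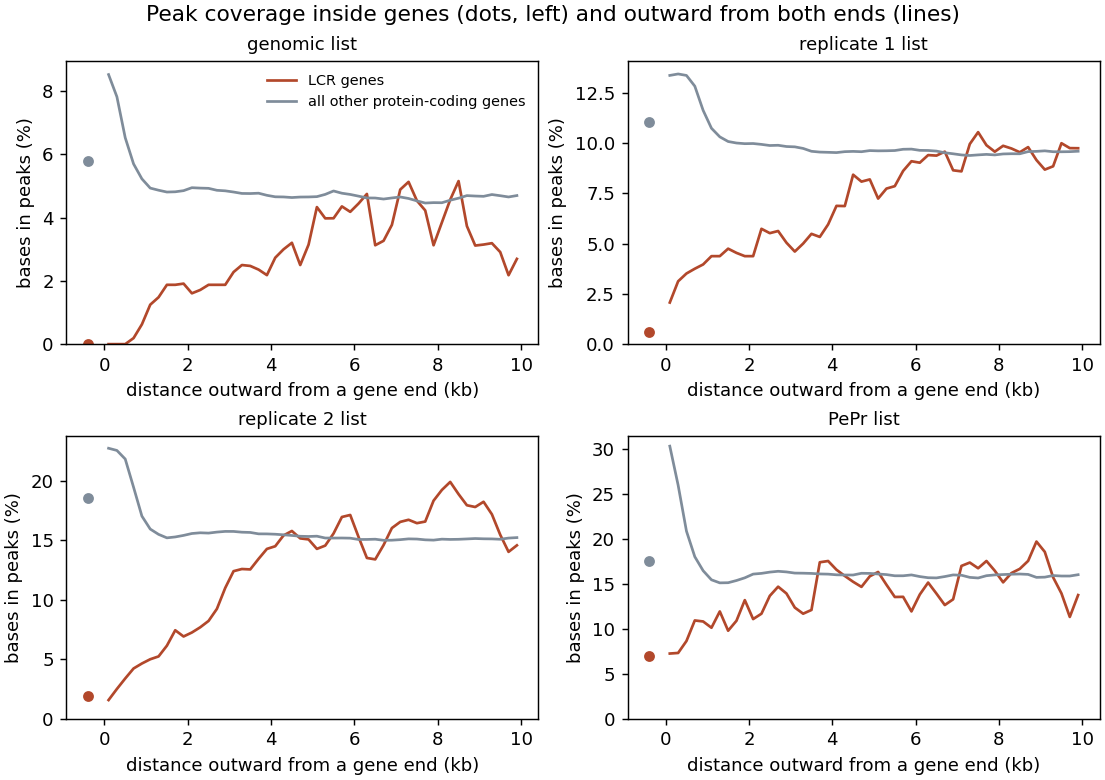
Percent of bases in peaks inside genes (dots, placed left of 0) and by distance outward from both gene ends in kb (lines, bins of 200 bp), for LCR genes and all other protein-coding genes, 1 panel per list with its own vertical scale. Lines for other genes are highest near the gene end, whereas those for LCR genes are low there and rise outward over the next kilobases.

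The genes beside LCR genes had a peak more often than the LCR genes did. The nearest protein-coding genes on either side that are not LCR genes numbered 118, of which 10 (8.47%, exact 95% bounds 4.14 and 15.0) were at a genomic list peak, against 19.7% of all genes that are not LCR genes. Of the 118 neighbours 14 (11.9%) had a replicate 1 peak, against 24.6% of all genes that are not LCR genes. A replicate 2 peak was at 36 neighbours (30.5%), against 41.5%, and a PePr peak at 70 (59.3%), against 68.8%. The share of neighbours with a peak was thus between that of LCR genes and that of all other genes in each list. LCR genes were set apart from other genes by wider gaps: the median gap to the nearest protein-coding gene was 794 bp for LCR genes and 190 bp for other genes. Another gene lay within 500 bp on both sides of 2.5% of LCR genes and 22.5% of other genes.

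LCR genes were short, with a median span of 584.5 bp and a range of 274 to 1558 bp, against a median of 2081 bp for other genes. The windows at both ends of a short gene overlap, so a median of 1584.5 bp was searched at LCR genes and 2002 bp at other genes. Shorter genes had peaks less often throughout the genome: among other genes of up to 1558 bp, 16.5% had a genomic list peak, 20.4% a replicate 1 peak, 35.7% a replicate 2 peak and 57.2% a PePr peak. Among longer genes the genomic list share was 21.2%. Among the 42 LCR genes of up to 600 bp, 0% had a genomic list peak, 7.14% a replicate 1 peak, 11.9% a replicate 2 peak and 28.6% a PePr peak. For other genes of that length the shares were 9.97%, 13.1%, 22.3% and 39.5%. Among the 27 LCR genes of 601 to 1000 bp, 0% had a genomic list peak, 11.1% a replicate 1 peak, 0% a replicate 2 peak and 40.7% a PePr peak, against 15.1%, 19.3%, 32.7% and 53.5% of other genes. The 11 LCR genes of 1001 to 1558 bp had a genomic list peak in 0%, a replicate 1 peak in 0%, a replicate 2 peak in 9.09% and a PePr peak in 27.3%, against 19.9%, 23.9%, 42.7% and 66.1% of other genes. Gene length moves with these shares, and its part in them was not tested.

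**Figure D4:**
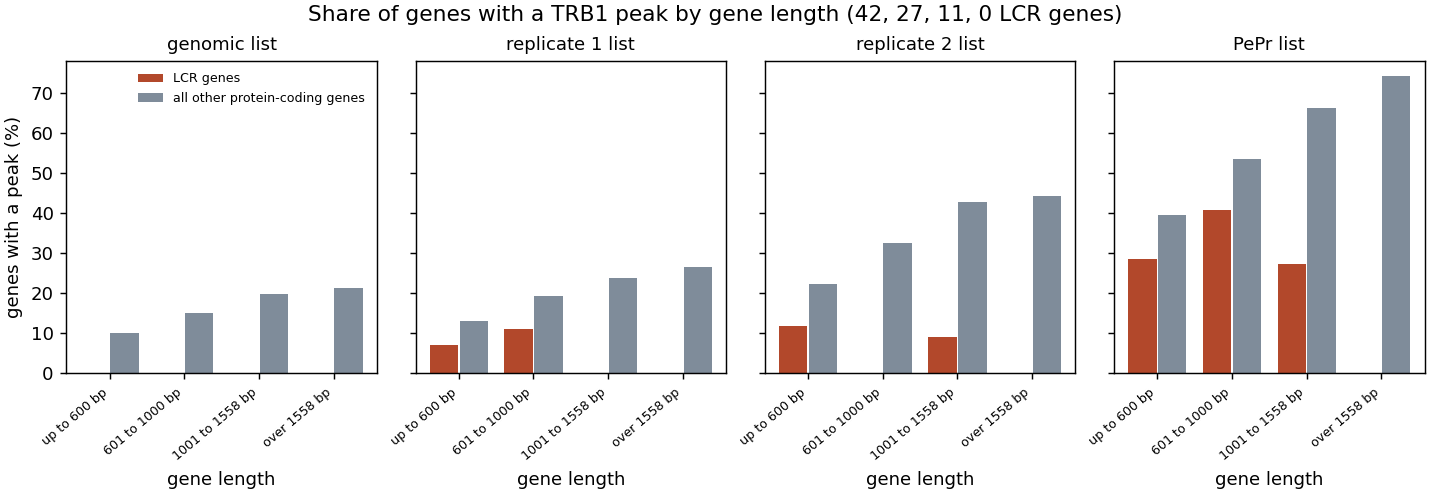
Percent of genes with a peak within 500 bp of an end by gene length, in 4 panels for the 4 lists, with LCR genes left of all other protein-coding genes in each pair. In every length class that holds LCR genes, and in each list, their bar is below that of other genes; no LCR gene is longer than 1558 bp.

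The members were spread unevenly over the chromosomes. Chromosomes 1 to 5 held 6, 22, 17, 23 and 12 LCR genes. Chromosomes 2 and 4 held 27.5% and 28.8% of LCR genes, against 15.7% and 15.2% of other genes. Chromosome 1 held 7.5% of LCR genes, against 26.1% of other genes. Replicate 1 peaks were at 1 of 6 LCR genes on chromosome 1, 2 of 22 on chromosome 2 and 3 of 23 on chromosome 4, and at 0 of 17 on chromosome 3 and 0 of 12 on chromosome 5, against 22.2% to 25.8% of other genes by chromosome. Replicate 2 peaks were at 0, 1, 1, 3 and 1 LCR genes of chromosomes 1 to 5, against 37.2% to 44.0% of other genes. In the PePr list 4 of the 6 LCR genes on chromosome 1 had a peak (66.7%), against 70.4% of other genes there. On chromosomes 2 to 5 the PePr share of LCR genes was 25% to 35.3%, against 66.3% to 69.6% of other genes.

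**Figure D5:**
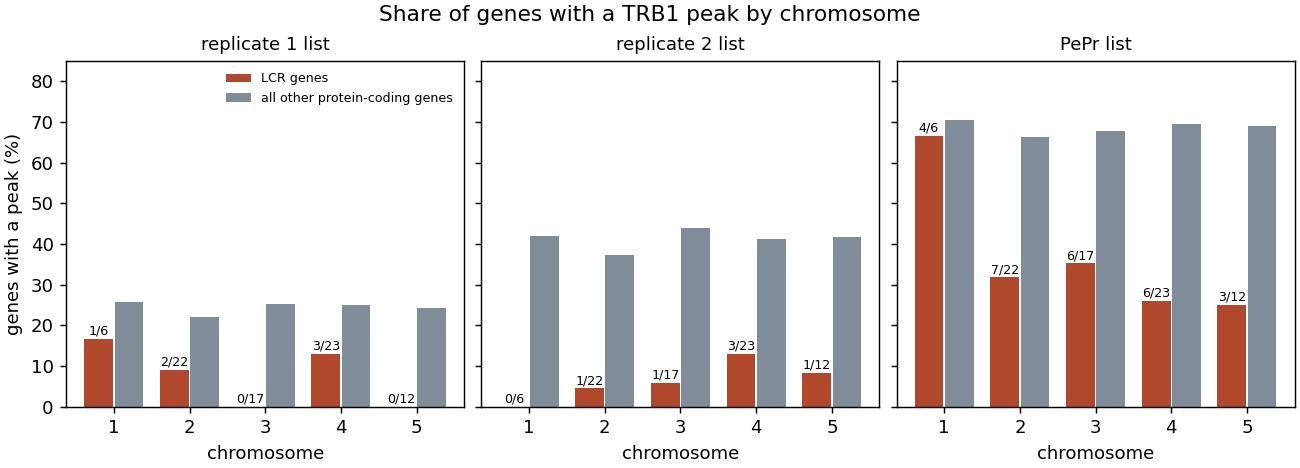
Percent of genes with a peak on chromosomes 1 to 5 in the replicate 1, replicate 2 and PePr lists, with LCR genes left of all other protein-coding genes and the number of LCR genes with a peak over their total above each LCR bar. The genomic list is not drawn because no LCR gene has a peak in it; on chromosome 1 the PePr shares are 66.7% of LCR genes and 70.4% of other genes.

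Adjacent genes accounted for 29 of the members, in 10 runs of LCR genes with no other protein-coding gene between them. Genes of a run can share a peak, as LCR27 and LCR25 did. The longest run, on chromosome 4, held 7 genes over 11277 bp in the order LCR23, LCR22, LCR21, LCR24, LCR26, LCR27 and LCR25. Its peaks lay at its ends. A replicate 2 peak overlapped LCR23, with a PePr peak 261 bp from that gene, and at the other end lay the shared replicate 1 peak of LCR27 and LCR25, with a PePr peak 347 bp from LCR27. The 4 genes between had no peak in any list within 500 bp, and their distances to the nearest PePr peak were 2702, 4221, 2581 and 1787 bp. No genomic list peak was nearer than 28924 bp to a gene of that run.

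The run of LCR61, LCR63, LCR59 and LCR19 on chromosome 4 was similar in that its end genes had the peaks, a PePr peak on LCR61 and a replicate 1 peak 62 bp from LCR19. In the run of LCR8, LCR52 and LCR53 on chromosome 3, the replicate 2 peak at LCR53 was again at an end. LCR64 and LCR65 on chromosome 1 and LCR42 and LCR39 on chromosome 3 each had a PePr peak of their own. The runs LCR68-LCR72-LCR73, LCR41-LCR18, LCR7-LCR15 and LCR20-LCR6 had no peak in any list. Among the 51 members outside runs, 3 had a replicate 1 peak, 4 a replicate 2 peak and 18 a PePr peak, and 3, 2 and 8 of the 29 members in runs had one. Over all other protein-coding genes the shares were 24.6% in replicate 1, 41.5% in replicate 2 and 68.8% in PePr.

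Of the 5 members that are also named as plant defensins, 0 had a peak of the genomic, replicate 1 or replicate 2 list; of the other 75 members, 0 had one in the genomic list, 6 in replicate 1 and 6 in replicate 2. Over all other protein-coding genes the shares were 19.7%, 24.6% and 41.5%. A PePr peak was at 1 of these 5 and at 25 of the other 75 members, against 68.8% of all other protein-coding genes. With 5 genes, a count of 0 cannot be read as a difference from the other members. The median distance to the nearest replicate 2 peak was 4029 bp for these 5 and 4653 bp for the other 75. LCR67, also named PDF1.1, had a PePr peak (chromosome 1, 28472791 to 28473130) of 340 bp with its middle 62 bp from the gene end and a p-value of 9.76e-07 in the authors' deposited list. The nearest PePr peaks to LCR69, LCR72, LCR66 and LCR68 were 669, 3197, 4262 and 8054 bp away.

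Several other families of small secreted peptides, found by symbol, had some members with a genomic list peak. Of 125 such genes 14 (11.2%) had one, against 19.7% of all genes that are not LCR genes. They included 5 of 34 RALF genes, which encode rapid alkalinization factors, 4 of 30 CLE genes, which encode signals of the shoot and root meristems, and 3 of 27 SCRL genes. SCRL proteins are small cysteine-rich proteins that resemble the pollen determinant of self-incompatibility in crucifers. SCRL genes had a median span of 582 bp and a PePr peak at 11 of 27 (40.7%). The PePr share was 32.5% for LCR genes and 68.8% for all genes that are not LCR genes. In the replicate 1 list 14.8% of SCRL genes had a peak and in the replicate 2 list 18.5%, against 7.5% of LCR genes in each. All genes that are not LCR genes had one at 24.6% and 41.5%, so the SCRL shares too were below those. The count in the genomic list was 0 for the 8 defensin genes with PDF symbols, the 6 LTP genes of lipid transfer proteins, the 6 GASA genes and the 2 EPF genes. These families are too small for a count of 0 to be read as a likeness to LCR genes. Of the 8 PDF genes, 4 also carry an LCR name among their synonyms, so they are not a separate family. The PDF genes had a PePr peak at 5 of 8 (62.5%), near the 68.8% of all genes that are not LCR genes. These differences between families were not tested.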

How the data were processed

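Chromatin immunoprecipitation libraries were made from fixed seedlings, per the labels' protocols. The submitters' processing notes name Bowtie2 2.2.2, SAMtools, bedtools and MACS and give no role for them; the builds they list are TAIR9 and TAIR10. The caller PePr appears only as part of a list name. No source used here states thresholds, control libraries or pooling. The authors deposited a score per peak in both replicate lists, on a scale not given, and a p-value per peak in the PePr list. The genomic list holds positions only.

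Peak positions are printed as deposited, counted from 1. Genes came from a RefSeq table of TAIR10.1, used for names and distances; none of its positions are printed, and distances take both releases to share positions. That table gives no strand, so starts and ends were not told apart. Peaks were matched to genes from 1 bp of overlap with Python 3.11.15, numpy 2.4.6, pandas 2.3.3 and scipy 1.17.1, and the matching was tested on simulated peaks. Intervals of shares are exact (Clopper-Pearson, 95%), and the interval of a median was read from the ranked values by binomial limits (95%). They cover counting error over genes only and take the genes as independent. PCR copies without molecular identifiers are not independent and no read depth was known, and the intervals allow for neither.

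The members, the gene lists and the settings were chosen with earlier results of these data known. Named genes are those with a replicate list peak, the 5 with a PePr peak alone of smallest p-value, the 5 farthest from a genomic list peak, those of runs, and genes whose end is nearer to a peak's middle. Those given at the distance limit or as plant defensins were named in addition. Of the planned symbol families, CEP and PDF symbols without a point were left out after their names were read, because they denote endopeptidases and other proteins. Promoter motifs, protein features and gene starts were planned and were not analysed here.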

Additional observations from a re-analysis of the deposited data

How the results depend on the processing

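The LCR share was below that of other genes in all 4 lists under all 9 settings tried in each. Of these 36 counts, 25 were within 1.5 times the reported one. Some of the 25 are genomic list counts of 0 that could not rise, because the setting only narrowed the rule, dropped genes or merged runs. Those counts say nothing on robustness. With 1000 bp on either side of an end, 1 LCR gene (LCR49) had a genomic list peak. Other genes then had one at 22.7%. By peak middles, the counts were 0 in replicate 1 and 2 in replicate 2, against 13.1% and 25.3% of other genes. With peaks required to overlap the gene itself, they were 2 in replicate 1, 2 in replicate 2 and 15 in the PePr list, against 22.1%, 37.5% and 61.1% of other genes. With each peak given to the nearest gene end, they were 1 in replicate 1 and 0 in replicate 2, against 13.5% and 25.1% of other genes. With the 50% of peaks of higher score or smaller p-value, they were 0 in replicate 1, 1 in replicate 2 and 8 in the PePr list, against 13.1%, 23.6% and 47.0% of other genes. The genomic list holds neither a score nor a p-value, and how its peaks were ranked for this setting is not stated here. Its count was 0, against 10.4% of other genes. With each run counted once, as having a peak if any of its genes did, there were 61 runs or single genes. Of these, 5 had a replicate 1 peak, 6 a replicate 2 peak and 23 a PePr peak, against 24.6%, 41.5% and 68.8% of other genes. The setting with gene starts alone and the motif settings were not run. No paired analysis was possible because each group had 1 library and the result comes from no test. Without read depth, a missing peak does not show that TRB1 was absent, and reads shared between LCR genes of similar sequence could not be assessed.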

Other observations

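Another 4 protein-coding genes carry an LCR name among their synonyms and a plant defensin symbol, and so fell outside the rule; they were added after the data were seen. These 4 were also counted above among the 8 PDF genes. PDF1.4 had a PePr peak, PDF2.5 had a replicate 1 peak and a PePr peak, and PDF2.1 and PDF1.2 had a peak in no list. With these 4 included, 0 of 84 genes (0%) had a genomic list peak, against 19.7% of other genes. A replicate 1 peak was at 7 (8.33%), against 24.6%, and a replicate 2 peak at 6 (7.14%), against 41.5%. A PePr peak was at 28 (33.3%), against 68.8% of other genes. The distances of the 4 added genes to the nearest genomic list peak were 21263 bp for PDF1.4, 17999 bp for PDF2.1, 14128 bp for PDF1.2 and 6367 bp for PDF2.5.

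LCR genes lay in surroundings of nearly the same gene density as other genes. The median number of other protein-coding genes within 50 kb was 26 for LCR genes and 27 for other genes, and the median number of genomic list peaks within 50 kb was 3 for LCR genes and 5 for other genes. No genomic list peak lay within 50 kb of 12 LCR genes (15.0%), against 7.04% of other genes. In order of the number of genes within 50 kb, from up to 23, to 27, to 30 and above, there were 28, 19, 16 and 17 LCR genes. In these classes a genomic list peak was at 0 LCR genes each time, against 14.2%, 21.1%, 22.7% and 22.3% of other genes. A replicate 1 peak was at 3.57%, 10.5%, 6.25% and 11.8% of LCR genes, against 18.7%, 26.0%, 27.2% and 28.3% of other genes. A replicate 2 peak was at 3.57%, 0%, 12.5% and 17.6% of LCR genes, against 32.5%, 43.9%, 45.9% and 46.2% of other genes. A PePr peak was at 21.4%, 47.4%, 43.8% and 23.5% of LCR genes, against 58.8%, 71.4%, 73.2% and 74.5% of other genes.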
